A study of Caenorhabditis elegans with 18 samples.

Results

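The genes described here form a module of 100 of the 20191 protein-coding genes counted in Caenorhabditis elegans. They were chosen because their RNA was higher after 1 h of auxin than with ethanol and lower again after 2 h of auxin. In all, 4 measured conditions had to be met: a mean of at least 0.5 CPM, the gene's count scaled to a fixed total of gene counts per library, over the 18 libraries, a mean at 1 h of at least 1.3 times the ethanol mean, a mean at 2 h of at most 0.85 times the 1 h mean, and a 1 h value above ethanol in at least 5 of 6 batches. Genes named cyp-35, of which 6 met these conditions, were left out. Of the 13594 genes at or above 0.5 CPM, the 100 members made up 0.736%.

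All libraries came from synchronized young adult hermaphrodites that had not yet formed embryos, grown at 20 °C on OP50 bacteria, and all worms carried the same alleles, mog-7::degron::gfp and sun-1p::TIR1::mRuby. The degron tag lets the plant receptor TIR1 mark MOG-7 for destruction once auxin is present, and the sun-1 promoter drives TIR1 in the germline. The 3 groups were auxin for 1 h, auxin for 2 h and ethanol for 2 h, with 6 libraries each, and each batch (I, II, V, VII, VIII, X in the labels) gave 1 library to each group. The ethanol worms, treated for 2 h, served as the control at both times. No auxin-treated worms lacking the degron or TIR1 were analysed here, so a response to auxin itself and a response to loss of MOG-7 cannot be told apart. No ethanol worms treated for 1 h were among the libraries either. A difference between auxin at 1 h and ethanol therefore cannot be told apart from an effect of the shorter treatment or its handling.

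MOG-7 takes part in pre-mRNA splicing, the step that removes introns from new transcripts. Poly(A)-selected RNA of whole worms holds transcripts of the intestine, hypodermis, muscle and neurons beside those of the germline, and in such bulk samples fewer cells of a type and less RNA per cell cannot be told apart. The level of an RNA depends on how fast it is made and how fast it is removed. Worm genes known for quick changes in RNA level include those for detoxification enzymes, which oxidise foreign compounds or join them to sugars, those for breakdown of amino acids and fatty acids, and those for uptake of metals.

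The libraries held 18153020 to 30747645 gene counts. The count of mog-7 itself, which the degron does not target at the RNA level, was 35.7 to 42.7 CPM at 1 h, 38.1 to 45.9 CPM at 2 h and 38.3 to 42.8 CPM with ethanol, so it does not show whether the protein was depleted. No member was in any of 10 lists of cell type markers. The summed level of 12 germline markers was 4014 to 4447 CPM at 1 h, 3416 to 4072 CPM at 2 h and 4122 to 4802 CPM with ethanol. None of 6 early embryo markers reached a mean of 0.5 CPM, and end-1, tbx-38 and med-1 had at most 3 counts in every library.

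All 3 group means entered the choice, so the gene levels that follow describe the members and are not tests of them. The auxin 1 h libraries enter both ratios, so a high value there raises the ratio to ethanol and lowers the ratio of 2 h to 1 h. Members were 1.3 to 3.22 times their ethanol mean at 1 h, with a median of 1.48. At 2 h they were 0.432 to 0.845 times their 1 h mean, with a median of 0.768, and 0.637 to 1.91 times their ethanol mean, with a median of 1.13. Over all genes at or above 0.5 CPM the same medians were 0.993, 1.00 and 1.03. Of the rise present at 1 h, a median of 70.3% was gone at 2 h. In 78 members the 2 h mean still lay above the ethanol mean, and in 22 it lay at or below it. The members together took 3043 to 3564 CPM of the 1 h libraries, 2144 to 2462 CPM of the 2 h libraries and 1785 to 2207 CPM of the ethanol libraries.

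**Figure D1:**
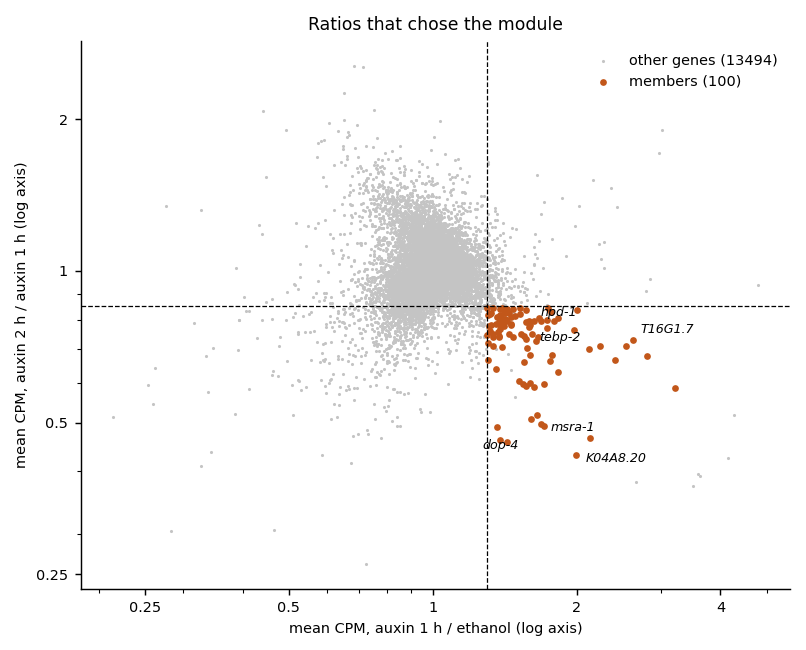
Ratio of the auxin 2 h mean to the auxin 1 h mean (vertical log axis) against the ratio of the auxin 1 h mean to the ethanol mean (horizontal log axis) for the 13594 genes with a mean of at least 0.5 CPM. Orange points are the 100 members, grey points the other genes, and dashed lines the limits of 1.3 and 0.85. The grey points inside both limits are the 6 cyp-35 genes left out and 5 genes that met too few batches.

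Most members were scarce: 30 averaged under 1 CPM and 25 at least 10 CPM, and the median member averaged 3.11 CPM where the median of all genes at or above 0.5 CPM was 16.3 CPM. Only 8 averaged at least 100 CPM. Per kilobase of exon, a scale on which genes can be set side by side, the highest of these was msra-1 at 445 CPM per kilobase averaged over all libraries, followed by hpd-1 at 246 and C30G12.2 at 164, and the lowest was eppl-1 at 73.4.

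Tyrosine breakdown supplied 2 of the 8 abundant members. The gene hpd-1 (WBGene00001993, chromosome III:10535526-10537680, plus strand) encodes hydroxyphenylpyruvate dioxygenase, the enzyme that makes homogentisate from the keto acid of tyrosine. It had 315 to 486 CPM at 1 h with a median of 436, 269 to 383 CPM at 2 h with a median of 330, and 220 to 306 CPM with ethanol with a median of 262. Every 1 h library was above every ethanol library, while the 2 h libraries overlapped both. The ratio of 1 h to ethanol was 1.59, with 1.43 to 1.7 within single batches, and that of 2 h to 1 h was 0.780, with 0.686 to 0.856. The gene tatn-1 (WBGene00009628, X:14791008-14792984, plus strand) encodes tyrosine aminotransferase, the step before it. Its 1 h libraries had 198 to 257 CPM with a median of 223, its 2 h libraries 171 to 205 CPM with a median of 184 and its ethanol libraries 140 to 179 CPM with a median of 157. Here too the 1 h group lay above the ethanol group and overlapped the 2 h group, with ratios of 1.41 for 1 h to ethanol and 0.835 for 2 h to 1 h.

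The other 4 enzymes of the route did not follow them. This list was drawn up after the values of hpd-1 and tatn-1 had been seen. The genes pah-1 (phenylalanine hydroxylase), hgo-1 (homogentisate oxidase), gst-42 (maleylacetoacetate isomerase) and fah-1 (fumarylacetoacetase) were 1.09 to 1.11 times their ethanol means at 1 h. Each then had a higher mean at 2 h than at 1 h, as for pah-1 with 198 ± 12.5 CPM at 1 h, 215 ± 9.86 CPM at 2 h and 179 ± 16.7 CPM with ethanol (SD, n = 6 each). In the kynurenine pathway of tryptophan breakdown, 0 of 5 genes were members. There kmo-1, kynurenine monooxygenase, fell just outside the module, with 26.9 ± 2.5 CPM at 1 h, 22.9 ± 3.00 CPM at 2 h and 19.7 ± 1.68 CPM with ethanol (SD, n = 6 each) and a ratio of 2 h to 1 h of 0.851.

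Among the 8 abundant members, msra-1 and C30G12.2 had the lowest ratios of 2 h to 1 h. msra-1 (WBGene00018393, II:7363220-7364040, minus strand) encodes a methionine sulfoxide reductase, which repairs oxidised methionine. It had 410 to 612 CPM at 1 h with a median of 466, 177 to 352 CPM at 2 h with a median of 234, and 234 to 363 CPM with ethanol with a median of 284. All 1 h libraries lay above all others, and the 2 h library was below the ethanol library in 5 of 6 batches. Its ratio of 1 h to ethanol was 1.69, with 1.4 to 1.79 within batches, and its ratio of 2 h to 1 h was 0.496, with 0.367 to 0.586. C30G12.2 (WBGene00016274, II:7290426-7291719, plus strand) had a similar course, with 173 to 314 CPM at 1 h with a median of 257, 96.9 to 164 CPM at 2 h with a median of 118, and 118 to 189 CPM with ethanol with a median of 142. Every 1 h library exceeded every 2 h library, and within batches the 2 h library was below the ethanol library in 6 of 6. Of the rise at 1 h, 124% was gone at 2 h for msra-1 and 122.5% for C30G12.2, a value over 100% meaning a 2 h mean below the ethanol mean.

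Other abundant members kept part of their rise. mak-1 (WBGene00010681, II:8744071-8747250, plus strand), a kinase of the family activated by MAP kinases, had 249 to 306 CPM at 1 h with a median of 271, 181 to 229 CPM at 2 h with a median of 220, and 154 to 215 CPM with ethanol with a median of 205. Its 1 h libraries lay above all others, and 76.3% of the rise was gone at 2 h. semo-1 (WBGene00012538, IV:14051200-14056717, plus strand), the worm's selenium-binding protein and a methanethiol oxidase, had 154 to 232 CPM at 1 h with a median of 188, 135 to 186 CPM at 2 h with a median of 143 and 92.7 to 152 CPM with ethanol with a median of 125. Its 1 h and ethanol groups did not overlap, and 52.8% of the rise was gone at 2 h. eppl-1 (WBGene00020139, IV:8449353-8451759, minus strand), the worm counterpart of the lyase that breaks down phosphoethanolamine, had 113 to 174 CPM at 1 h with a median of 133, 91.0 to 134 CPM at 2 h with a median of 108 and 75.2 to 121 CPM with ethanol with a median of 94.8. Its groups overlapped, although the 1 h library was the highest of the 3 in each batch.

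**Figure D2:**
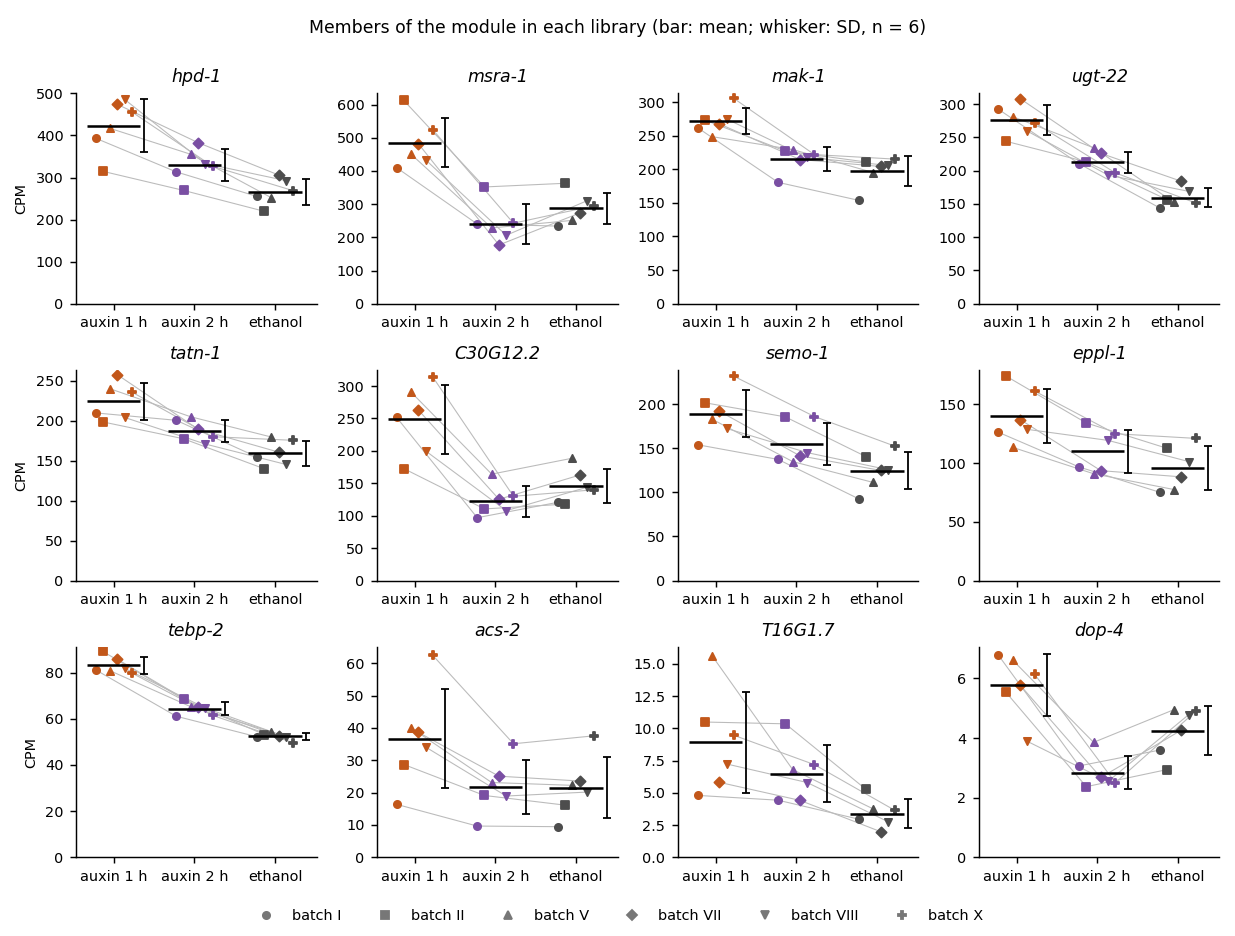
CPM (vertical axes, from 0) of 12 members in each library, with auxin 1 h, auxin 2 h and ethanol from left to right; symbols mark the 6 batches, grey lines join libraries of a batch, bars are group means and whiskers SD (n = 6). For tebp-2 the groups lie apart at 79.8 to 89.2, 61.1 to 68.5 and 49.6 to 54.3 CPM, whereas for acs-2 batches I and X span 16.4 to 62.4 CPM at 1 h.

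Among the lists of genes made from name starts, that of detoxification, which takes in some transporters, held the most members. Of 204 genes of that list at or above 0.5 CPM, 11 were members (5.39%), beside 0.736% of all such genes. At 1 h, 47 of the 204 were at least 1.3 times their ethanol mean, beside 334 of all 13594, of which 100 were members. The list takes in the cyp-35 genes, which could not be members. The list's own medians were 1.10 for 1 h to ethanol and 1.03 for 2 h to 1 h, so most of its genes had not receded at 2 h. The 11 comprised 4 UDP-glucuronosyltransferases (ugt-22, ugt-9, ugt-14 and ugt-67), 3 cytochromes P450 outside the cyp-35 names (cyp-14A2, cyp-34A9 and cyp-33C5), the short-chain dehydrogenases dhs-26 and dhs-23, the flavin monooxygenase fmo-1 and the efflux transporter pgp-13. ugt-22 (WBGene00007455, IV:13639260-13644567, plus strand), an enzyme that joins sugar acids to small molecules, had 244 to 308 CPM at 1 h with a median of 276, 193 to 234 CPM at 2 h with a median of 212 and 144 to 184 CPM with ethanol with a median of 154. None of its 3 groups overlapped another, and 54.7% of its rise was gone at 2 h. dhs-26 (WBGene00000989, X:3360722-3362493, minus strand) had 1.77 to 6.31 CPM at 1 h with a median of 4.36, 1.34 to 4.38 CPM at 2 h with a median of 2.71 and 0.858 to 3.72 CPM with ethanol with a median of 2.42. Its groups overlapped widely, and within batches its ratio of 2 h to 1 h ran from 0.358 to 1.16. pgp-13 (WBGene00004007, X:12738754-12744111, plus strand), an ATP-driven exporter, had 5.77 to 7.38 CPM at 1 h, 4.86 to 6.16 CPM at 2 h and 3.8 to 5.56 CPM with ethanol, with medians of 6.82, 5.20 and 4.77. Its 1 h libraries lay above all ethanol libraries and overlapped those at 2 h.

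The largest ratios of 1 h to ethanol belonged to less abundant genes. The ratio was 3.22 for dhs-23 and 2.81 for ugt-14, which averaged 1.66 CPM and 1.16 CPM over the 18 libraries, and the genes that follow averaged at least 2 CPM. T16G1.7 (WBGene00011801, V:12932941-12935112, minus strand) had 4.80 to 15.6 CPM at 1 h with a median of 8.36, 4.42 to 10.4 CPM at 2 h with a median of 6.31 and 1.99 to 5.27 CPM with ethanol with a median of 3.30. It was 2.62 times its ethanol mean at 1 h and still 1.91 times at 2 h, and its 1 h and ethanol groups overlapped. F21C10.9 (WBGene00017658, V:9097201-9098696, minus strand) had 95.6 to 130 CPM at 1 h, 57.3 to 135 CPM at 2 h and 40.3 to 75.6 CPM with ethanol, with medians of 118.7, 76.1 and 55.2. Its 1 h libraries were all above the ethanol libraries, while 1 of its 2 h libraries exceeded every 1 h library. cest-33 (WBGene00017431, V:6363408-6365671, minus strand), of the carboxylesterase family, had 33.2 to 50.2 CPM at 1 h, 26.2 to 46.1 CPM at 2 h and 19.6 to 24.6 CPM with ethanol, with medians of 39.6, 29.8 and 23.7. Both auxin groups lay above the ethanol group and overlapped each other. C18H9.6 (WBGene00016004, II:6700657-6701625, minus strand) had 26.5 to 45.7 CPM at 1 h, 21.8 to 38.3 CPM at 2 h and 15.1 to 24.3 CPM with ethanol, with medians of 33.3, 29.8 and 17.1. Only 33% of its rise was gone at 2 h. B0252.1 (WBGene00015087, II:6919680-6923745, plus strand) had 9.98 to 14.4 CPM at 1 h, 7.92 to 11.4 CPM at 2 h and 5.13 to 8.04 CPM with ethanol, and 36.6% of its rise was gone.

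At 2 h acs-2 stood at 1.01 times its ethanol mean and smf-3 at 1.17 times. acs-2 (WBGene00009221, V:15567394-15569897, plus strand), an acyl-CoA synthetase of fatty acid oxidation known for its response to feeding state, had 16.4 to 62.4 CPM at 1 h with a median of 36.4, 9.66 to 35.1 CPM at 2 h with a median of 21.1 and 9.47 to 37.6 CPM with ethanol with a median of 21.2. The groups overlapped, with batch I lowest and batch X highest in each, and the ratio of 1 h to ethanol ran only from 1.64 to 1.80 within batches. Its ratio of 2 h to 1 h was 0.595, with 0.556 to 0.666 within batches, and 98% of the rise was gone. smf-3 (WBGene00004878, IV:2618869-2625503, plus strand), an intestinal transporter of iron and manganese of the NRAMP family, had 6.28 to 10.9 CPM at 1 h with a median of 8.09, 4.33 to 6.88 CPM at 2 h with a median of 5.36 and 3.55 to 5.72 CPM with ethanol with a median of 4.74. Its 1 h libraries lay above all ethanol libraries, but within batches its ratio of 1 h to ethanol ran from 1.10 to 2.10. At 2 h it was still above ethanol in 6 of 6 batches, with 78.1% of its rise gone.

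Several transporters were singled out after their values had been seen. zipt-2.3 (WBGene00013207, II:13712906-13715879, minus strand), a zinc transporter, had 12.8 to 19.1 CPM at 1 h, 8.39 to 12.9 CPM at 2 h and 7.47 to 12.6 CPM with ethanol, with medians of 15.3, 10.2 and 10.5. Its 1 h group lay above the ethanol group, and its 2 h and ethanol groups spanned nearly the same range. hrg-1, a heme transporter, averaged 20.7 ± 4.99 CPM at 1 h, 15.5 ± 4.21 CPM at 2 h and 15.5 ± 2.06 CPM with ethanol (SD, n = 6 each). hrg-2, of the same heme-responsive set, averaged 1.29 ± 0.183 CPM at 1 h, 0.768 ± 0.232 CPM at 2 h and 0.836 ± 0.305 CPM with ethanol (SD, n = 6 each). For both, the 1 h value was above ethanol in 5 of 6 batches and the 2 h value below 1 h in 6. amt-4 (WBGene00000136, X:4565302-4569620, plus strand), an ammonium transporter, had 53.7 to 69.2 CPM at 1 h, 42.8 to 56.8 CPM at 2 h and 39.7 to 50.02 CPM with ethanol, and 65.6% of its rise was gone.

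dop-4 and twk-33 encode a receptor and a channel. dop-4 (WBGene00016872, X:1295253-1298830, plus strand), a dopamine receptor, had 3.89 to 6.78 CPM at 1 h with a median of 5.95, 2.37 to 3.85 CPM at 2 h with a median of 2.61 and 2.94 to 4.95 CPM with ethanol with a median of 4.52. All 1 h libraries lay above all 2 h libraries, and the 2 h library was below the ethanol library in 6 of 6 batches, at 0.669 times the ethanol mean. twk-33 (WBGene00006685, V:17710042-17714377, minus strand), a potassium channel, had 10.4 to 12.6 CPM at 1 h, 7.26 to 10.7 CPM at 2 h and 6.52 to 8.45 CPM with ethanol. Its 1 h libraries were all above the ethanol libraries. Also singled out after their values had been seen were kqt-1, a voltage-gated potassium channel, nmur-1, a receptor of the neuromedin U family, gcy-23, a receptor guanylyl cyclase of thermosensory neurons, and gpa-13, a G protein alpha subunit. Their means at 1 h were 1.32 to 1.47 times their ethanol means, all at means of 0.624 to 1.54 CPM over the 18 libraries. The summed level of 8 neuronal markers was 301 to 329 CPM at 1 h, 310 to 326 CPM at 2 h and 299.996 to 326 CPM with ethanol, and its part in these values was not tested.

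The other lists gave few members. None of 173 nuclear receptors, 89 other transcription factors, 46 heat shock genes, 78 sperm genes, 23 histone genes, 37 proteases and 33 kinases and phosphatases of those lists at or above 0.5 CPM were members. With 0.736% of all genes being members, a list of this size gives few or none, so these zeros are not a result about the members. The lists were made from name starts, so mak-1 was in none, and neither were the Hox gene nob-1 nor cfi-1, a transcription factor of the ARID type. Both were picked out after their values had been seen, with ratios of 1 h to ethanol of 1.41 and 1.31. The cuticle and moulting list gave 2 members of 244 (0.820%, cutl-21 and the hedgehog-related wrt-3) and that of immunity 1 of 172 (0.581%, the C-type lectin clec-3), shares near that of all genes. The list of ubiquitin adaptors gave 4 of 178 (2.25%), channels and transporters 4 of 190 (2.11%) and lipid metabolism 2 of 112 (1.79%, acs-2 and lipl-4), above that share but by few genes and with no test. The lists of metal and oxidative stress genes (smf-3), neuropeptides and insulins (nlp-52) and G protein coupled receptors (srd-53) gave 1 each, of 18, 107 and 95. In all, 27 members were in a list and 73 in none.

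Of the 100 members, 9 lay in 3 runs of neighbours whose starts were within 20 kb. The run on chromosome III held the F-box genes fbxa-5, fbxa-26 and fbxa-27 between 1336695 and 1344744, with ratios of 1 h to ethanol of 1.79, 1.83 and 1.52. The run of ugt-9, ugt-67 and ugt-14 lay on chromosome V between 4896048 and 4908304, with ratios of 1.98, 1.77 and 2.81. These runs are of similar paralogs, and how reads shared between near-identical copies were counted is not given in the sources used here, so their separate values are uncertain. The third run held unlike genes on the plus strand of chromosome V: K04A8.20, the lysosomal lipase gene lipl-4 and the potassium channel gene twk-10, between 6549448 and 6560256. K04A8.20 averaged 1.31 ± 0.356 CPM at 1 h, 0.566 ± 0.228 CPM at 2 h and 0.657 ± 0.0942 CPM with ethanol (SD, n = 6 each). lipl-4 averaged 1.49 ± 0.416 CPM at 1 h, 0.686 ± 0.233 CPM at 2 h and 1.08 ± 0.270 CPM with ethanol. twk-10 averaged 2.29 ± 0.6247 CPM at 1 h, 1.16 ± 0.225 CPM at 2 h and 1.43 ± 0.406 CPM with ethanol. Each had a 2 h mean below its ethanol mean and at most 0.507 times its 1 h mean. No cyp-35 gene started within 20 kb of a member. Chromosome V held 32 members, 32% beside 18.8% of all genes at or above 0.5 CPM, and X held 19% beside 14.04%, while I held 9% beside 16.7% and III 7% beside 16.03%.

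Members differed in how far they had receded. The 2 h mean was under 0.85 times the ethanol mean in 6 members, from 0.85 to 1 times in 16, from 1 to 1.3 times in 60 and above that in 18. The 5 members with the lowest ratio of 2 h to 1 h were K04A8.20 at 0.432, F15E6.3 at 0.458, lipl-4 at 0.462, the amino acid transporter aat-8 at 0.467 and dop-4 at 0.490. F15E6.3 had 1.02 to 3.96 CPM at 1 h, 0.751 to 2.05 CPM at 2 h and 0.939 to 2.20 CPM with ethanol, with medians of 1.94, 0.876 and 1.62. Its groups overlapped. Within batches, 27 members were above ethanol at 2 h in 6 of 6 batches, beside 19.9% of all genes, and 3 were below it in 6 of 6, beside 26.3%.

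**Figure D3:**
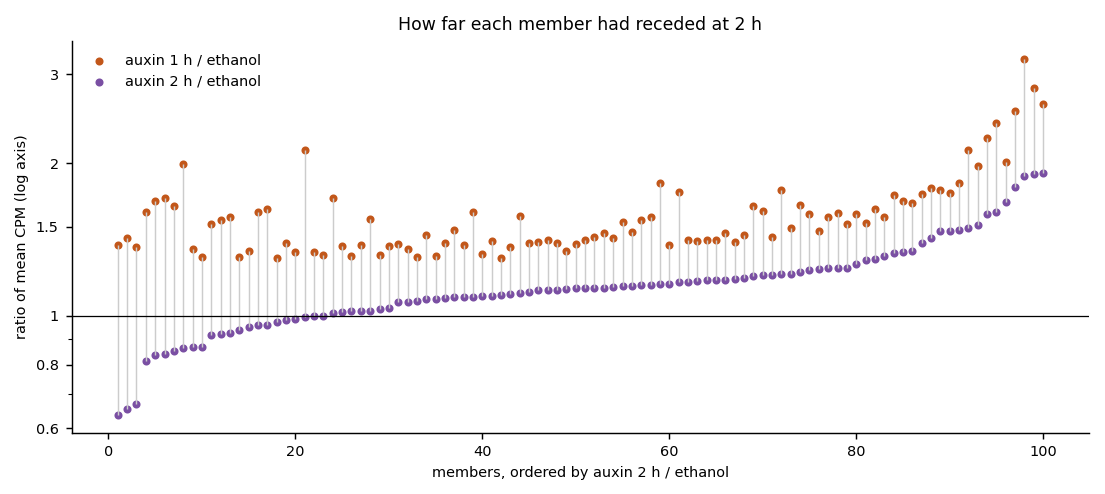
Ratios of group mean CPM (vertical log axis) for the 100 members, ordered along the horizontal axis by the ratio of auxin 2 h to ethanol. Orange points are auxin 1 h over ethanol (1.3 to 3.22) and purple points auxin 2 h over ethanol (0.637 to 1.91), joined by a line for each member. 22 purple points lie at or below 1 and 78 above it.

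The pattern held to different degrees in the batches. The 1 h library was above the ethanol library in 6 of 6 batches for 78 members and in 5 for 22, the fewest the choice allowed. The 2 h library was below the 1 h library in 6 batches for 60 members, in 5 for 28, in 4 for 11 and in 3 for 1. All 6 libraries at 1 h exceeded all 6 with ethanol in 30 members, where 1.24% of all genes at or above 0.5 CPM did so, and all 6 at 1 h exceeded all 6 at 2 h in 12, where 3.35% did. Both held in msra-1, mak-1, ugt-22, tebp-2, best-7 and K04A8.20, 6 members, where 0.132% of all genes did so. Between 2 h and ethanol the libraries of 3 members, ugt-22, tebp-2 and cest-33, did not overlap and were all higher at 2 h, where 14.3% of all genes did not overlap in either direction. Of the 6 members above, best-7, of the bestrophin anion channel family, had 25 to 30.8 CPM at 1 h, 18.6 to 21.8 CPM at 2 h and 18.6 to 22.6 CPM with ethanol.

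Across all 13969 genes that passed the count filter, among them all 100 members, edgeR's quasi-likelihood test with Benjamini-Hochberg adjustment at 0.05 called 63 members higher at 1 h than with ethanol, where 3.62% of all genes were called in that direction. It called 27 members lower at 2 h than at 1 h, where 3.95% of all genes were. With batch as a replicate block these counts were 88 and 71, where 12.5% and 16.3% of all genes were called. The choice used these same contrasts, so nothing is read from these counts. At 2 h against ethanol, whose means the choice also used, 21 members were called higher and 1 lower, where 14.5% and 20.1% of all genes were, and with the block 36 and 5, where 30.2% and 26.5% were.

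The choice was then repeated 6 times from 5 batches, asking for a 1 h value above ethanol in at least 4 of them, and the left-out batch was read. Each round chose 112 to 130 genes, of which 80 to 92 were members, and 58 members were chosen in every round. In the left-out batch 65.4% to 77.8% of the chosen genes were above ethanol at 1 h and below the 1 h value at 2 h, where 20.2% to 26.4% of all genes at or above 0.5 CPM were. Their median ratio there was 1.29 to 1.48 for 1 h to ethanol and 0.760 to 0.863 for 2 h to 1 h. The 3 libraries of a batch share whatever that batch was, and the 1 h library enters both ratios.

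**Figure D4:**
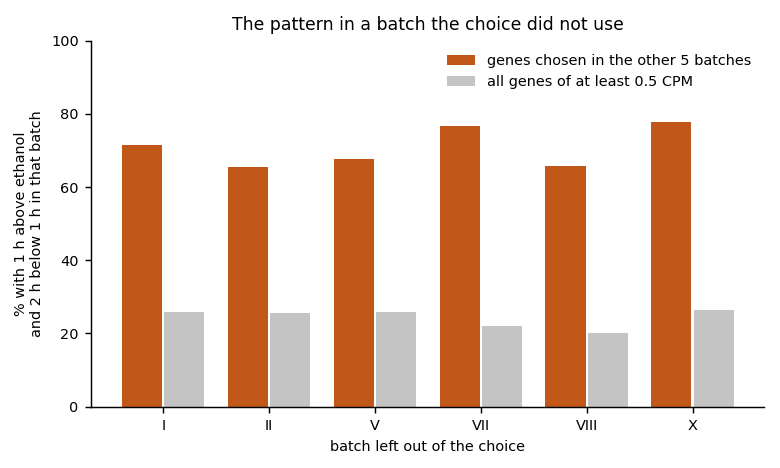
Share of genes (vertical axis, %) whose auxin 1 h library lay above the ethanol library and whose auxin 2 h library lay below the auxin 1 h library, in the batch left out of the choice (horizontal axis). Orange bars are genes chosen by the same conditions in the other 5 batches, at 65.4% to 77.8%, and grey bars all genes of at least 0.5 CPM, at 20.2% to 26.4%.

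The counts of reads within introns were not used by the choice, but they come from the same libraries as the gene counts that were. Whether a read could enter both counts is not given in the sources used here. Each of 106818 intron intervals had its own count, and library sizes were those of the gene counts. On that scale 83.2% of the 15325 introns that passed the filter on low counts were called higher at 1 h than with ethanol. Among them 5596 had at most 3 counts in every ethanol library and so passed through the auxin libraries alone. The median log2 fold change of the 15325 was 2.93, or 2.14 with those 5596 at their lower bound. With no filter 23519 of 82049 introns were called higher, and the median was 0.92. Members had 498 intervals in 96 genes, of which 35 were shared with another gene. The 90 members with intervals of their own had few reads there, with a median of 38 per member over all 18 libraries. Only 17 introns of 12 members passed the filter, and no count over these stands for the 100. Of the 17, 11 were called higher at 1 h than with ethanol, and 5 of those 11 were in tebp-2. The introns of tebp-2, C18H9.6 and zipt-2.3 passed the filter through the auxin libraries alone, so their calls against ethanol are not read as tests. Intron 3 of F21C10.9, also called higher, had 3 to 42 reads at 1 h and 3 to 17 with ethanol. It would not have passed on its ethanol libraries, and its call was lost without batch V (edgeR adjusted p = 0.152). That call is not read as a test either. For introns outside tebp-2 the 1 h to ethanol values are all below the all-intron median and change sign when scaled by the introns' own counts, except in msra-1, where the value is below 0 on both scales.

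tebp-2 (WBGene00020464, IV:5541627-5544748, plus strand) encodes a protein that binds telomeric DNA and is known from the germline. Its gene count was 79.8 to 89.2 CPM at 1 h with a median of 81.5, 61.1 to 68.5 CPM at 2 h with a median of 64.9 and 49.6 to 54.3 CPM with ethanol with a median of 52.3. The 3 groups did not overlap, and the ratio of 1 h to ethanol kept to 1.49 to 1.68 within batches. All 5 of its introns, 45 to 68 bases long, passed the filter. With at most 4 reads in any ethanol library, they passed through the auxin libraries alone, so their values against ethanol are given as a description with no test. Intron 1 (IV:5541822-5541889) had 79 to 158 reads at 1 h, 85 to 126 at 2 h and 0 to 4 with ethanol, and intron 4 (IV:5543791-5543849) had 71 to 110, 59 to 104 and 0 to 4. Introns 2, 3 and 5 had at most 3 reads in any ethanol library. Taking 3 reads per ethanol library as the floor, they were at least 46.4-fold, 44.9-fold and 15.2-fold higher at 1 h, and at least 41.9-fold, 39.1-fold and 16.5-fold higher at 2 h, than with ethanol. Between 2 h and 1 h none of the 5 was called, with log2 fold changes of -0.20 to 0.12, where the gene count stood at -0.35. Scaled by the introns' own counts, introns 1 to 4 of tebp-2 stood at -0.42, -0.50, -0.54 and -0.36 for 2 h to 1 h. That scaling also moved the median of all tested introns from 0.333 to -0.013. Since tebp-2 was picked out as the member with the most intron reads, no test is given for these values.

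For each 1000 gene reads tebp-2 had 264 ± 16.9 intron reads at 1 h, 315 ± 16.9 at 2 h and 5.71 ± 1.84 with ethanol (SD, n = 6 each). The gene reads in the denominator were used by the choice, which asked for a fall between 1 h and 2 h, so nothing is read from the difference between the auxin times in this ratio. Scaled to the library's gene counts (CPM), its introns summed to 21.9 ± 1.76 CPM at 1 h, 20.3 ± 0.796 at 2 h and 0.301 ± 0.103 with ethanol (SD, n = 6 each). Both auxin times were above ethanol in 6 of 6 batches, and no test is given for this, since tebp-2 was picked out as the member with the most intron reads. Between 2 h and 1 h the intron sum of tebp-2 stood at a ratio of 0.924, with the 2 h library higher in 2 of 6 batches. For the same reason no test is given for this. In each of the 6 batches its gene count was lower at 2 h than at 1 h.

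Among the other members, C18H9.6 and zipt-2.3 had an intron that was called lower at 2 h than at 1 h. With at most 9 reads in any ethanol library, both introns passed the filter through the auxin libraries alone. Neither would have passed on its 2 h libraries without those at 1 h. Their values in all comparisons are therefore given as a description, and their calls are not read as tests. Intron 2 of C18H9.6 (II:6701037-6701122) had 8 to 40 reads at 1 h, 2 to 17 at 2 h and 1 to 9 with ethanol. Its log2 fold change was 1.99 for 1 h to ethanol and -0.90 for 2 h to 1 h (SE 0.32). Intron 4 of zipt-2.3 (II:13713124-13713773) had 12 to 26 reads at 1 h, 8 to 17 at 2 h and 4 to 9 with ethanol. Its log2 fold change was 1.5 for 1 h to ethanol and -0.64 for 2 h to 1 h (SE 0.24). These are the only 2 of the 17 introns called lower at 2 h than at 1 h, where 1.08% of all tested introns were, and DESeq2 called neither. Nothing is read from this count. The call in C18H9.6 was also lost without batch I, V or VIII, and that in zipt-2.3 without batch I, V, VII or VIII and with no filter on low counts, with values of -0.52 to -0.93 in these fits. Under scaling by the introns' own counts their 1 h to ethanol values turned to -0.069 and -0.57. With the block 4 of the 17 were called lower at 2 h than at 1 h, where 1.48% of all introns were.

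In msra-1, whose gene count was 1.69 times the ethanol mean at 1 h, the sole intron (II:7363652-7363784) was not called higher. It had 49 to 108 reads at 1 h, 52 to 80 at 2 h and 73 to 92 with ethanol. Its log2 fold change was -0.29 for 1 h to ethanol (SE 0.14, edgeR adjusted p = 0.0583, and 0.0274 with the block), while that of the gene count was 0.77. At 2 h it was called lower than with ethanol, at -0.32 (SE 0.14, edgeR adjusted p = 0.0343), a direction in which 1.37% of all introns were called. That call was lost with no filter on low counts (edgeR adjusted p = 0.0956) and without batch VII, VIII or X, with values of -0.31, -0.30 and -0.21 (edgeR adjusted p = 0.0728, 0.0842 and 0.174). Intron 2 of hpd-1 had 13 to 39 reads at 1 h, 5 to 40 at 2 h and 5 to 38 with ethanol, and its log2 fold change was 0.05 for 1 h to ethanol (SE 0.26, edgeR adjusted p = 0.865). The intron of C30G12.2, with 26 to 57, 17 to 35 and 17 to 55 reads, stood at 0.23 for 1 h to ethanol (SE 0.21, edgeR adjusted p = 0.304) and -0.49 for 2 h to 1 h (SE 0.22, edgeR adjusted p = 0.0753, and 0.0321 with the block).

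In mak-1 and in 1 of 2 tested introns of eppl-1 the intron was called higher at 1 h. Intron 5 of mak-1 had 87 to 148 reads at 1 h, 79 to 107 at 2 h and 59 to 94 with ethanol, a log2 fold change of 0.64 for 1 h to ethanol (SE 0.15, edgeR adjusted p = 6.77e-05) where the gene count stood at 0.47. Intron 2 of eppl-1 had 49 to 90 reads at 1 h, 45 to 74 at 2 h and 30 to 59 with ethanol, a log2 fold change of 0.70 (SE 0.16, edgeR adjusted p = 8.06e-05) where the gene count stood at 0.56. Intron 3 of eppl-1 was not called, at 0.33 (SE 0.22, edgeR adjusted p = 0.167). On the introns' own scale the values of the called introns were -1.45 and -1.38. Intron 4 of C03A7.13 was also called higher, at 0.40, but this interval of 11572 bases holds the gene C03A7.2 on the other strand. The gene counts are labelled as reverse-strand counts, but whether the intron counting used strand is not given in the sources used here. Over all member introns other than those of tebp-2, the summed intron reads were 46.3 ± 4.69 CPM of gene counts at 1 h, 40.4 ± 2.89 at 2 h and 33.5 ± 3.36 with ethanol (SD, n = 6 each), with the 1 h library above ethanol in 6 of 6 batches. This sum includes the interval of C03A7.13. It was 1.38 times ethanol at 1 h and 1.20 times at 2 h, beside 2.69 and 3.28 times for the intron reads of all genes.

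**Figure D5:**
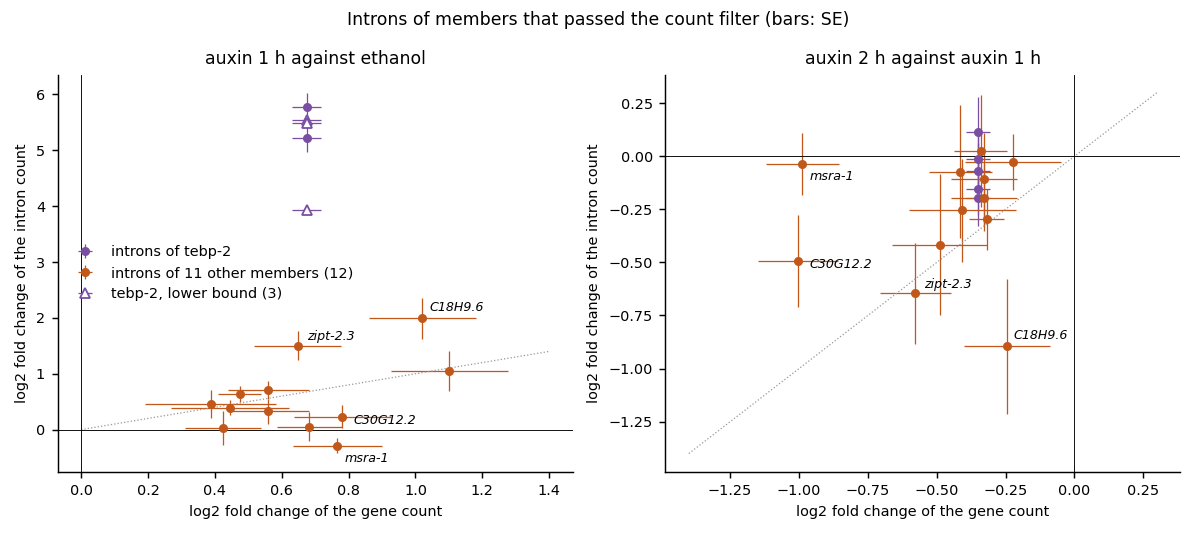
Log2 fold change of an intron's count (vertical axis) against that of its gene's count (horizontal axis) for the 17 tested introns of 12 members, at auxin 1 h against ethanol (left) and auxin 2 h against auxin 1 h (right); points are edgeR estimates, bars SE, and the dotted line marks equal change. On the left the introns of tebp-2 lie far above the line, 3 of them as open triangles at their lower bounds, and that of msra-1 below 0 at -0.29; scaled by the introns' own counts, the values of the 12 introns outside tebp-2 were all below 0.

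Genes close to the limits show how narrow some choices were. Just inside the limit of 1.3 for 1 h to ethanol were oac-46 at 1.30003, F48D6.4 at 1.30089 and C04E6.8 at 1.30594, and just outside it F32D8.12 at 1.29858, T04A6.1 at 1.29733 and C09F12.2 at 1.29683. For 2 h to 1 h, fbxa-27 at 0.844533, oac-46 at 0.844431 and ZK822.1 at 0.844172 were inside, and Y49G5A.1 at 0.850486, C52D10.3 at 0.850722 and kmo-1 at 0.850988 outside. For the mean level, ugt-67 at 0.538 CPM, cutl-21 at 0.539 CPM and nlp-52 at 0.569 CPM were inside, and clc-27 at 0.484 CPM, T23E7.6 at 0.470 CPM and T26C12.3 at 0.451 CPM outside. Genes that failed a single condition other than the mean level numbered 100 for the ratio to ethanol, 205 for the ratio of 2 h to 1 h and 5 for the number of batches.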

How the data were processed

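Poly(A)-selected RNA of 18 samples was sequenced from stranded libraries, per the labels' protocols. The authors deposited whole-number counts per protein-coding gene and per intron interval, and replicates were not pooled. The submitters' processing notes name Trimmomatic, cutadapt, STAR, SAMtools, Picard, featureCounts, limma and edgeR without roles or versions. The genome build is not given in the sources used here. All 20191 gene IDs were kept as deposited, of which 20105 were located in the WBcel235 annotation (Ensembl release 115), the source of the gene positions printed. Intron positions are those of the deposited table and fell exactly on annotated introns for the introns named.

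CPM is a gene's count divided by the library's summed gene counts, times 1000000. The members and all lists were chosen with earlier results of these data known. Genes were named by a rule: highest mean, largest ratio, nearest to a limit, up to 4 per list, most intron reads and lowest ratio of 2 h to 1 h; others are marked as chosen after their values were seen. Counts were tested with edgeR 4.0.16 (R 4.3.3), all 18 libraries in 1 fit, TMM scaling and a minimum count of 10 in the filter, leaving 13969 genes and 15325 introns. Introns were scaled by the gene libraries, with DESeq2 1.42.0 as an alternative. The test scripts were tested on simulated data.

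Batch numbers come from the labels. Deviations from the group means were correlated at 0.227 to 0.772 between libraries sharing a batch and at -0.593 to 0.457 between others, so batch was used as a block in a further fit. Replicates of a group differed by more than sampling noise, with chi-square values of 4.44 to 29.8 per degree of freedom. The labels do not say that batches were separate cultures, so p-values measure the spread between these samples. Promoter and protein sequences were not used here, and the motif search was not run.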

Additional observations from a re-analysis of the deposited data

Results flagged for a closer look

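In 219 sets of 6 libraries, made of the named genes in each group, 18 held a library whose gap to its nearest neighbour was too large a share of the range for Dixon's 95% critical value. Chance flags about 1 in 20 sets. Among the abundant members, msra-1 stood at 351.7 CPM in batch II at 2 h, where the other 5 libraries reached 242 CPM. mak-1 was low in batch I at both ends, with 180.6 CPM at 2 h and 153.8 CPM with ethanol. cest-33 had 46.1 CPM in batch V at 2 h, and best-7 had 18.6 CPM in batch I with ethanol.

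Batch V also held the high libraries of the neighbouring ugt genes, with 8.13 CPM for ugt-9 and 1.11 CPM for ugt-67 at 2 h, and 3.02 CPM for ugt-14 at 1 h. Batch II held those of clec-3, with 6.37 CPM at 1 h and 5.05 CPM at 2 h. In batch X, B0252.1 had 14.4 CPM and fbxa-5 1.67 CPM at 1 h, F15E6.3 had 2.05 CPM at 2 h, and gpa-13 had 0.826 CPM and cutl-21 0.275 CPM with ethanol. In batch VII fbxa-71 had 1.43 CPM at 2 h. The genes T04A6.1 and T23E7.6, just outside the module, stood apart in the same way at 20.3 CPM in batch VII at 2 h and at 0.735 CPM in batch II with ethanol.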

How the results depend on the processing

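The module held 96 genes with TMM-scaled CPM, 105 with DESeq2 size factors, 121 with group medians, 70 with a minimum mean of 1 CPM and 172 with 0.1 CPM, and 112 to 130 without 1 batch. With the replicate block, calls were 4286 genes at 1 h against ethanol, 4567 at 2 h against 1 h and 7930 at 2 h against ethanol, and 71 members at 2 h against 1 h and 41 at 2 h against ethanol. Leaving out a batch gave 821 to 1480 genes at 1 h against ethanol, 351 to 1084 at 2 h against 1 h (14 to 24 members) and 14 to 21 members at 2 h against ethanol, the lowest each time without batch I. Without a filter on low counts 23803 and 26110 of 82049 introns were called at 1 h and 2 h against ethanol, 19 of 370 in members each time. Between 2 h and 1 h, 3190 to 4282 introns were called when a batch was left out, 2013 with TMM on the intron counts and, of members, 0 to 2, 10 with that TMM, 4 with the block and 0 with DESeq2. At 2 h against ethanol TMM on the intron counts called 17 member introns, 5 higher and 12 lower. Scaling by the gene libraries had called 10 higher and 1 lower.

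TMM on the intron counts lowers a rise shared by most introns but did not remove it. The median over all introns tested was 0.903 at 1 h and 0.949 at 2 h against ethanol (log2). This scaling turned 1 h against ethanol to -1.68 in C03A7.13, -0.069 in C18H9.6, -1.86 in C30G12.2, -1.004 in F21C10.9, -1.63 in F48D6.4, -2.04 in W08A12.3 and in hpd-1, -1.76 and -1.38 in eppl-1, -1.45 in mak-1 and -0.57 in zipt-2.3 (log2). At 2 h against ethanol it gave -2.06 in C03A7.13, -1.31 in C18H9.6, -1.77 in F21C10.9, -2.23 in F48D6.4, -2.20 and -1.93 in eppl-1, -2.38 in hpd-1, -2.10 in mak-1 and -1.55 in zipt-2.3. Member intron reads per 1000 member gene reads were 5.07 higher at 1 h and 10.9 higher at 2 h than with ethanol, but without tebp-2, the member with most intron reads, the differences were -2.09 and 1.72. Their denominator was used by the choice of members.

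Low counts limit the scarce members and nearly all member introns, for which a missing call says little. The 2 h against 1 h calls in C18H9.6 and zipt-2.3 rest on at most 40 reads per library and are not read as tests.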

Other observations

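The 25 members with a mean of at least 10 CPM varied together more than genes at large once group means were removed from log2(CPM + 1). Over 18 libraries the median correlation of their 300 pairs was 0.208, beside 0.0687 over all pairs of 7979 genes at that level. With batch means removed as well these medians were 0.198 and 0.0298. The pairs share the same libraries and their depth, and the members were chosen on the group means of those libraries. Single pairs depended on which means were removed. ugt-22 and F21C10.9 were at 0.920 with group and batch means removed and at 0.225 with group means alone, and ugt-22 and cest-33 at 0.826 and 0.619. hpd-1 and tatn-1, both of tyrosine breakdown, were at 0.028 and 0.394. No test was made of these values.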
